A study of Bos taurus with 8 samples.

Results

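Cornified envelope proteins and the transglutaminases that cross-link them were followed in the rumen epithelium of calves on 2 diets. The set was chosen by gene name, with earlier results of these data known. It holds 10 genes: the precursors IVL, LOR, SPRR1A, SPRR3, CNFN and SCEL, the enzymes TGM1 and TGM3, and CRNN and S100A14 of the S100 protein family. Of these 10, among 14962 genes named on the array, 9 had 1 probe each, SPRR1A had no probe under its name, and 5 could be tested (IVL, CNFN, TGM1, TGM3 and S100A14). The arrays come from Holstein bulls with a rumen fistula (age 7.4 ± 0.3 months, body weight 215.2 ± 20.4 kg in the 5 bulls of the study). Each animal received a high-grain diet based on corn flakes (control) and a version of it in which wood kraft pulp, a cellulose-rich fibre from wood, took the place of part of the corn flakes (WP), for 14 days each in a cross-over with no wash-out between. Both groups were thus on high grain, and a calf's second feeding period followed directly on the first. There were 8 arrays, 4 per diet, from calves 21, 23, 24 and 25, and each calf was its own control. The sources used here do not give which diet a calf received first.

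The rumen is lined by a stratified, cornifying squamous epithelium. In such an epithelium, cells that leave the basal layer replace their plasma membrane from within by the cornified envelope, a protein shell fixed by bonds between glutamine and lysine side chains. Involucrin (IVL) and cornifelin (CNFN) are among the proteins built into it, loricrin (LOR) and the small proline-rich proteins reinforce it in many such epithelia, and transglutaminases 1 and 3 (TGM1, TGM3) form the bonds.

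Each gene rests on a single 60-base probe, so the sequences below are what the array measured for the 3 genes whose diet values differ in character: IVL with the lowest mean difference, TGM1 with the widest spread between calves, and CNFN with almost no spread on the WP diet. Positions follow the array's own annotation (UMD 3.1), and whether a probe lies in coding sequence or a UTR was not analysed here. The IVL probe lies at chr3:17883334-17883393 on the minus strand, the TGM1 probe at chr10:20743805-20743864 on the plus strand and the CNFN probe at chr18:51242205-51242264 on the plus strand.
IVL: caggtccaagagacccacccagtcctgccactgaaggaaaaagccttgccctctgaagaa
TGM1: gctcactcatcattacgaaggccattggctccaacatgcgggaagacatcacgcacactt
CNFN: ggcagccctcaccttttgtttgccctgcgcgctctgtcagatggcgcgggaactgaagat
Their G and C content was 55.0% for IVL, 51.7% for TGM1 and highest for CNFN, all above the median of 45.0% over all probes. The longest stretch that each shared with any of the other 15007 probes was 12 bases for IVL and CNFN and 14 bases for TGM1. The TGM3 probe lies at chr13:53261672-53261731 on the minus strand and the S100A14 probe at chr3:16829333-16829392 on the plus strand.

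All 8 arrays lay on 1 slide with 1 scan time, and no spot was saturated. A probe counts here as above background where the scanner software called it well above background, which held for 9314 to 11990 probes per array. The WP array of calf 24 stood apart. The median signal of its negative control spots was 4.06, against 1.20 to 1.90 on the others, and 1483 of the 3447 probes (43.0%) that were dim on the other 7 arrays were above background there. On every other array that share lay between 0.507% and 6.96%. The arrays also fell into 2 rows by the position given in their names: row 1 held the WP arrays of calves 21 and 23 and the control arrays of calves 24 and 25, and row 2 held the other array of each calf. Nothing in the labels says that the arrays of a row were processed together. The feeding period of each array is not given either, so a difference between rows cannot be told apart from one between feeding periods. Nor can it be told apart from a diet difference that varies between calves 21 and 23 and calves 24 and 25.

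In the mean over calves, all 5 tested envelope genes had lower levels on WP than on control, and 35.6% of all tested probes did. The difference was about 1 log2 unit for IVL, TGM1 and TGM3, smaller for CNFN and near 0 for S100A14. In limma, with calf as a block, none of the 5 had an adjusted p under 0.05, and 0 of 10236 probes (0%) had. IVL alone had an unadjusted limma p under 0.05 (0.0400), on the lower side, where 1.75% of probes lay. At that unadjusted level 179 probes were lower and 536 (5.24%) higher, and no member was among the latter. Quantile scaling gave 336 lower and 192 higher, and cyclic loess scaling 411 and 263. IVL and TGM1 were lower by more than 1 log2 in the mean, as were 0.547% of probes. Levels are written as log2 of the processed signal minus the log2 of that array's 75th percentile. No probe's level is set against another's. In bulk tissue, fewer cells of a type and less RNA per cell cannot be told apart.

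**Figure D1:**
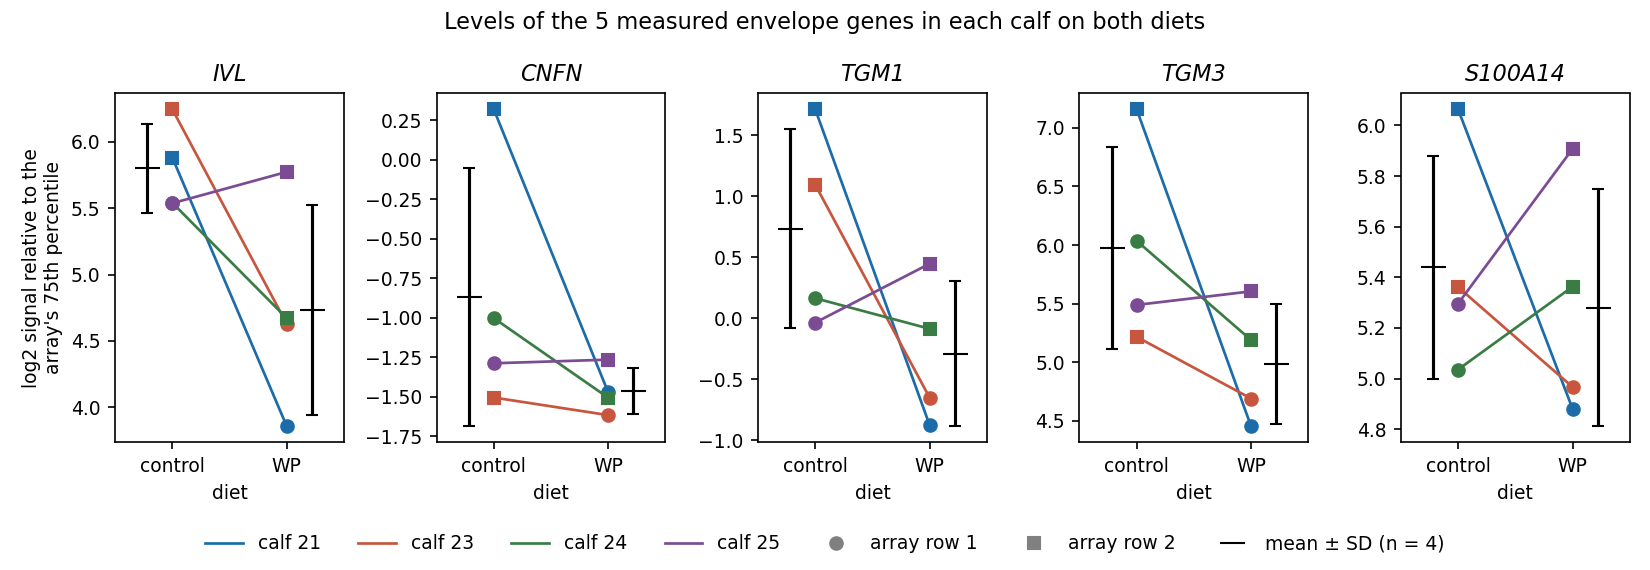
Level of each of the 5 tested genes (log2 signal relative to the array's 75th percentile, a separate axis range per gene) on the control and WP diets. Lines join the 2 arrays of a calf, circles and squares mark array rows 1 and 2, and black bars give mean ± SD (n = 4). The lines of calf 21 slope down in every panel, and those of calf 25 are level or slope up, from a CNFN difference of 0.023 to an S100A14 difference of 0.61.

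IVL, the glutamine-rich precursor on which the envelope is first laid down, was above background on every array. Its processed signals on the control diet were 19002, 21837, 13123 and 9809 in calves 21, 23, 24 and 25, which are levels of 5.88, 6.25, 5.54 and 5.54. On WP the signals were 2876, 4976, 7254 and 12817, which are levels of 3.85, 4.63, 4.67 and 5.77. The WP arrays of calves 21, 23 and 24 lay below all 4 control arrays, while calf 25 on WP exceeded 2 of them, so the groups overlapped. The mean level was 5.80 ± 0.34 on control and 4.73 ± 0.79 on WP (SD, n = 4), and the values on WP were more spread.

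Within calves, the IVL difference was -2.03, -1.62, -0.87 and 0.24 in calves 21, 23, 24 and 25. Its mean was -1.07 ± 0.99 (SD, n = 4), with a 95% interval of -2.07 to -0.071 in limma before adjustment, which is a control over WP fold of 2.10 after scaling to each array's 75th percentile. The adjusted p was 0.658 in limma. Leaving out 1 calf at a time gave means between -1.51 (without calf 25) and -0.75 (without calf 21).

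CNFN, a small cysteine-rich envelope protein, was above background on all 8 arrays. Its processed signals were 402, 101, 141 and 86.4 on control and 71.6, 65.7, 100 and 97.4 on WP in the same order of calves. The control array of calf 21 stood well above the other 7, which all lay within 65.7 to 141. The mean level was -0.87 ± 0.82 on control and -1.47 ± 0.15 on WP (SD, n = 4).

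The CNFN difference within calves was -1.79, -0.11, -0.50 and 0.023, with a mean of -0.60 ± 0.83 (SD, n = 4). Its 95% interval ran from -1.44 to 0.25 and its adjusted p was 0.660 in limma. Without calf 21 the mean was -0.20, so most of the size of the CNFN difference came from that calf. The groups overlapped, since the control array of calf 23 (-1.51) was as low as the WP array of calf 24 (-1.51).

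The other precursors were near background. LOR, the main reinforcing protein of the envelope in skin, was not well above background on any of the 8 arrays, with signals of 1.49 to 2.11 on control and 1.61 to 4.05 on WP. SPRR3, a small proline-rich protein of internal squamous epithelia, read 1.62 to 1.87 on control and 1.35, 2.25, 31.9 and 1.80 on WP in calves 21, 23, 24 and 25. SCEL, the precursor sciellin, read 19.0, 1.43, 1.46 and 4.79 on control and 4.38, 1.80, 35.3 and 1.98 on WP. Thus SPRR3 was above background on the WP array of calf 24 alone, and SCEL on that array and on the control array of calf 21. Those are the arrays with the highest and next highest share of otherwise dim probes above background, at 43.0% and 6.96%. The part of that array property in the SPRR3 and SCEL signals was not tested, and no diet difference is given for these genes. Their probes lie at chr3:17273734-17273793 (LOR, minus strand), chr3:17774640-17774699 (SPRR3, minus strand) and chr12:53115644-53116604 (SCEL, plus strand, 60 bases spread over 961 bases of genome).

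**Figure D2:**
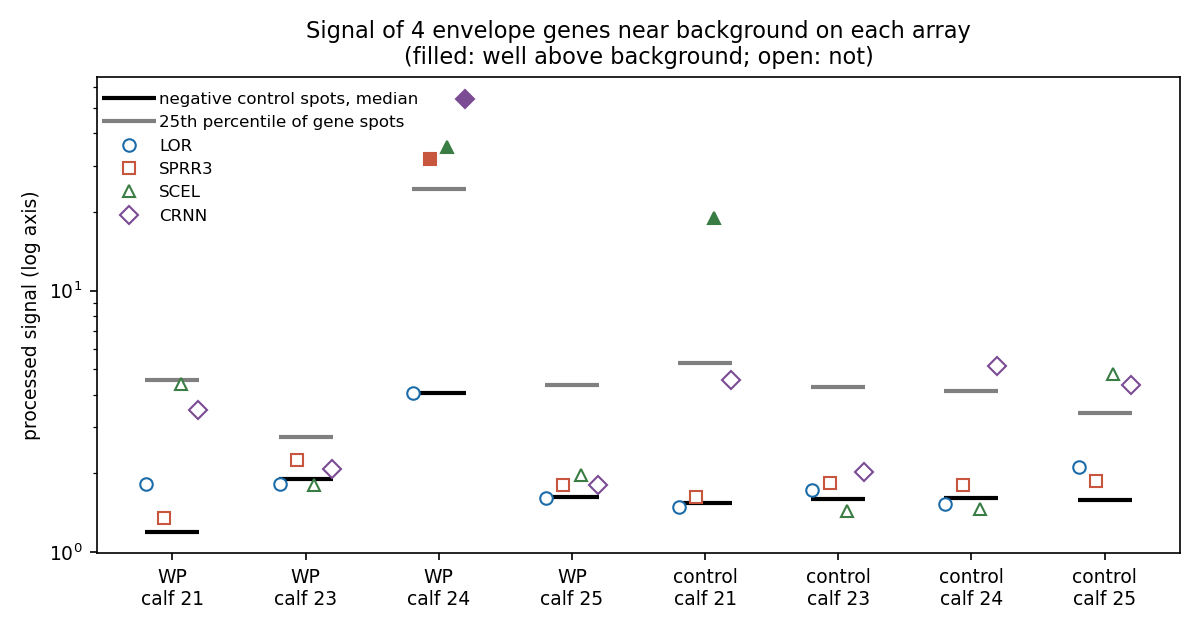
Processed signal (log axis) of LOR, SPRR3, SCEL and CRNN on each of the 8 arrays, filled where well above background. Black bars are the median of negative control spots and grey bars the 25th percentile of gene spots. On the WP array of calf 24 the 25th percentile was 24.4, against 2.77 to 5.28 elsewhere, and SPRR3 (31.9), SCEL (35.3) and CRNN (54.2) stand above it.

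TGM1, the membrane-bound transglutaminase that starts envelope assembly, had processed signals of 1058, 615, 316 and 206 on control in calves 21, 23, 24 and 25. On WP it read 108, 128, 269 and 319. Thus the order of the calves turned round: calf 21 was highest on control and lowest on WP, and calf 25 lowest on control and highest on WP. The levels ran from -0.035 to 1.71 on control and from -0.88 to 0.45 on WP, and the groups overlapped through calf 25 on WP.

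The TGM1 difference within calves was -2.59, -1.75, -0.25 and 0.48, with a mean of -1.03 ± 1.40 (SD, n = 4). The spread between calves was larger than the mean. The 95% interval ran from -2.40 to 0.35 and the adjusted p was 0.658 in limma. Without calf 21 the mean was -0.51, and without calf 25 it was -1.53.

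TGM3, the transglutaminase that is activated by proteolysis and acts on soluble precursors, had signals of 45994, 10699, 18492 and 9484 on control. On WP it read 4358, 5203, 10400 and 11396. The control array of calf 21 was again the highest, and the WP arrays of calves 21 and 23 the lowest. The WP arrays of calves 21, 23 and 24 had levels of 4.45, 4.69 and 5.19, below the lowest control level of 5.22, and calf 25 on WP (5.60) lay above 2 control arrays.

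The TGM3 difference within calves was -2.70, -0.53, -0.85 and 0.12, with a mean of -0.99 ± 1.21 (SD, n = 4). Its 95% interval ran from -2.19 to 0.21 and its adjusted p was 0.658 in limma. Without calf 21 the mean was -0.42. After scaling to each array's 75th percentile, the control over WP fold was 1.99 for TGM3 and 2.04 for TGM1.

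The diet values of precursors and cross-linking enzymes overlapped. Over the 2 tested precursors (IVL, CNFN) the median difference per calf was -1.91, -0.87, -0.69 and 0.13 in calves 21, 23, 24 and 25, and over the 2 transglutaminases it was -2.65, -1.14, -0.55 and 0.30. The precursor value minus the enzyme value was 0.74, 0.27, -0.14 and -0.17, with a mean of 0.18 ± 0.43 (SD, n = 4). It was positive in 2 calves and negative in 2, and smaller than its spread. Without calf 21 it was -0.0125. With 2 genes per side these values describe single genes more than classes.

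Ratios within an array compare the change of 1 gene with that of another. The IVL to TGM1 ratio shifted on WP by 0.56, 0.13, -0.62 and -0.25 log2 (mean -0.044 ± 0.51, SD, n = 4), and the IVL to TGM3 ratio by 0.68, -1.09, -0.025 and 0.12. Both shifts were positive in 2 calves and negative in 2. The TGM3 to TGM1 ratio shifted by -0.11, 1.22, -0.60 and -0.37, so the enzymes themselves moved apart in calf 23, where TGM1 differed by -1.75 and TGM3 by -0.53. The CNFN to TGM3 ratio shifted upwards in 3 of 4 calves, by 0.91, 0.41, 0.34 and -0.093. In calf 23 IVL and TGM1 were both lower on WP while CNFN was nearly the same on both diets, and the CNFN to TGM1 ratio shifted by 1.64.

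S100A14, a small S100 family protein of epithelial cells, showed the least difference of the tested genes. Its signals were 21560, 11826, 9251 and 8298 on control and 5861, 6301, 11729 and 14054 on WP in calves 21, 23, 24 and 25. The control array of calf 21 was the highest, and the other 3 control arrays lay inside the range of the WP arrays. The difference was -1.18, -0.39, 0.33 and 0.61, lower on WP in calves 21 and 23 and higher in calves 24 and 25. The mean was -0.16 ± 0.80 (SD, n = 4), with a 95% interval of -0.98 to 0.66 and an adjusted p of 0.880 in limma. Its sign turned without calf 21, to 0.18.

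CRNN, cornulin, a fused S100-type protein of late squamous cells, was above background on 1 array. Its signals were 4.54, 2.03, 5.15 and 4.35 on control and 3.49, 2.08, 54.2 and 1.80 on WP, the high value being that of calf 24. As with SPRR3 and SCEL, the array with the high value is the one whose dim probes were raised, and its part was not tested. The CRNN probe lies at chr3:18325225-18325284 on the plus strand.

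In calves 21 and 23 all 5 tested members were lower on WP, in calf 24 it was 4 of 5, and in calf 25 none of them was. Of all tested probes, 40.1%, 46.4%, 35.9% and 50.1% were lower on WP in calves 21, 23, 24 and 25. The median difference of the 5 was -2.03, -0.53, -0.50 and 0.24 in calves 21, 23, 24 and 25, beside medians over all tested probes of 0.12, 0.029, 0.14 and -0.00043. The 4 genes IVL, CNFN, TGM1 and TGM3 were lower in 3 of 4 calves, and 22.5% of probes were lower in at least 3. None of the 5 was lower in 4 of 4 calves, as 5.41% of probes were, and none had all WP arrays below all control arrays, as 1.19% of probes had.

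The place of each member among all probes of the same calf differed by gene and calf. In calf 21 0.461% of 10194 probes had a lower difference than TGM3, 0.54% a lower one than TGM1, 0.952% a lower one than IVL, 1.37% a lower one than CNFN and 3.48% a lower one than S100A14. In calf 23 TGM1 (0.785%) and IVL (0.952%) were still at the low end, while TGM3 (9.4%), S100A14 (13.7%) and CNFN (33.8%) were less so. In calf 24 the low ones were IVL (2.14%) and TGM3 (2.29%), with CNFN at 5.97%, TGM1 at 14.0% and S100A14 at 63.6%. In calf 25 CNFN (53.0%) and TGM3 (64.4%) stood nearer the middle, and IVL (76.3%), TGM1 (89.6%) and S100A14 (92.8%) further up. IVL and TGM1 were lower by over 1 log2 in both calf 21 and calf 23, as were 1.46% of probes.

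**Figure D3:**
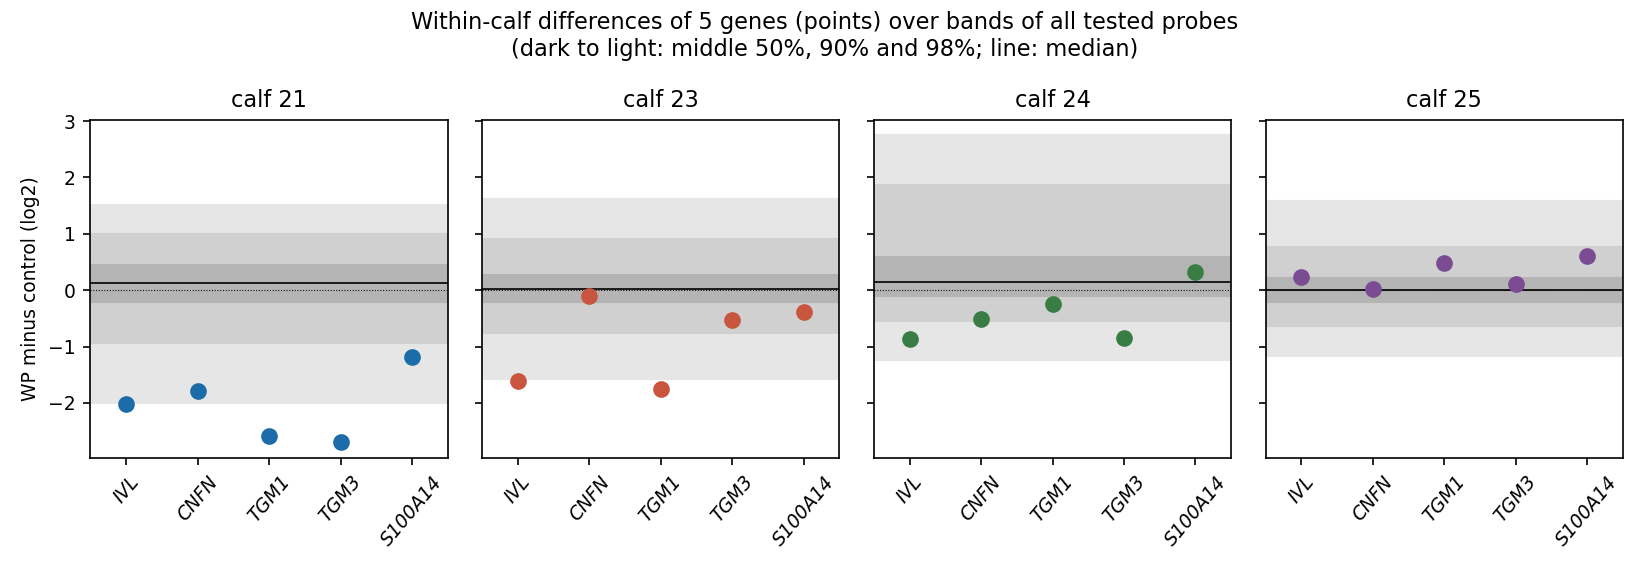
WP minus control difference (log2) of the 5 tested genes, 1 panel per calf, as points over grey bands that hold the middle 50%, 90% and 98% of all tested probes, with their median as a line. In calf 21 TGM1 and TGM3 lie below the widest band and IVL at its lower edge, in calf 23 TGM1 and IVL lie at or just below that edge, and in calf 25 all 5 points are above 0.

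Calves 21 and 23 are also the calves whose control arrays lay in row 2 and WP arrays in row 1, and in calves 24 and 25 this was reversed. On the control diet TGM1 averaged 1.41 in row 2 and 0.065 in row 1, and on WP 0.18 and -0.76. TGM1, IVL and S100A14 were higher in row 2 than in row 1 on both diets without overlap, which 6.61% of all probes were. In limma with calf, diet and row, the row difference was 1.14 for TGM1 (adjusted p = 0.298), 0.75 for IVL (adjusted p = 0.353), 0.63 for S100A14 (adjusted p = 0.343), 0.62 for TGM3 (adjusted p = 0.572) and 0.36 for CNFN (adjusted p = 0.666). For TGM1 and S100A14 this value was larger in size than the diet difference. It is not separate evidence, since it restates how the within-calf differences of calves 21 and 23 departed from those of calves 24 and 25. A row difference cannot be told apart from a diet difference that varies between these calves. No probe passed an adjusted p of 0.05 for row (0%), and 12.9% had an unadjusted p under 0.05.

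Each diet had 2 arrays in each row, so row did not shift the mean diet difference. Within row 1 WP minus control was -1.30 for IVL, -0.83 for TGM1, -1.19 for TGM3 and -0.40 for CNFN. Within row 2 it was -0.84 for IVL, -1.22 for TGM1, -0.79 for TGM3 and -0.79 for CNFN. These 4 genes were lower on WP within both rows, each of which compares different animals. S100A14 gave -0.24 in row 1 and -0.077 in row 2. With row as a second block the adjusted p in limma was 0.488 for IVL and TGM1, 0.494 for TGM3 and 0.519 for CNFN.

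The members varied more over the 8 arrays than most genes. The SD of the level over the arrays was 0.80 for TGM1, 0.79 for TGM3, 0.75 for IVL, 0.59 for CNFN and 0.40 for S100A14, where the median gene had 0.27. For TGM1, 94.3% of genes had a smaller SD, and for S100A14 71.3% had.

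Likeness between genes was measured as the root mean square gap between their levels over the 8 arrays, each gene centred on its own mean, across 10164 genes. The closest pair of members was TGM3 and CNFN, with a gap of 0.335 log2. CNFN was the 4th nearest of all genes to TGM3, and TGM3 the 27th nearest to CNFN. IVL and TGM1 came next with a gap of 0.431, as the 54th nearest to IVL and the 48th nearest to TGM1. TGM1 and TGM3, which share their chemistry, had a gap of 0.474. The widest gap was that of IVL and CNFN, at 0.738. All 8 arrays enter each gap, so shared features of an array such as its row and calf enter it too.

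The genes whose profiles were nearest to IVL were LYNX1, a Ly6 family protein (gap 0.251), TMEM40, a transmembrane protein (0.256), the tyrosine phosphatase PTPN6 (0.257), TMPRSS11BNL (0.277) and the ubiquitin hydrolase UCHL3 (0.288). PTPN6 had within-calf differences of -2.17, -1.64, -0.67 and 0.11, close to those of IVL calf by calf. TMPRSS11BNL was lower in all 4 calves, with -1.81, -1.21, -1.31 and -0.32. Nearest to TGM1 were the serine protease PRSS22 (0.240), the adaptor protein SLA2 (0.259), the phosphatase DUSP14 (0.270), SCNN1A, a subunit of the epithelial sodium channel (0.274), and the deubiquitinase OTUB2 (0.295). PRSS22 had differences of -2.32, -1.70, -0.33 and 0.44, and SCNN1A -2.05, -1.66, -0.69 and 0.60. None of these 10 genes passed the test, with adjusted p between 0.658 and 0.671 in limma.

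IVL, LOR, SPRR3, CRNN and S100A14 lie in the epidermal differentiation complex, a stretch of bovine chromosome 3 that in mammals gathers genes of late squamous differentiation. Between the S100A14 and CRNN probes (chr3:16829333-18325284, 1.5 megabases) the array held 21 probes, of which 10 belonged to tested genes that are no members. Of these 10, 3 had negative and 7 positive mean differences, with a median of 0.20, and 35.6% of all tested probes had negative means. Their medians were 0.0072, -0.017, 0.285 and 0.074 in calves 21, 23, 24 and 25. The negative IVL differences of calves 21 and 23 were thus not shared by these neighbours as a whole. SMCP (2.43), LCE1B (1.56) and PGLYRP3 (1.29) were highest in calf 24, whose WP array had raised dim probes. The part of that array in their positive means was not tested. CRCT1, a cysteine-rich gene of the complex, had the lowest mean at -1.73, with -3.84, 0.63, -3.38 and -0.32 in calves 21, 23, 24 and 25. S100A8, a calcium-binding protein of neutrophils and stressed keratinocytes, had -2.72, -0.51, -0.81 and 0.46, the same signs as IVL. LCE1B, the late envelope gene 84 kb from IVL on the same strand, had -0.11, -0.36, 1.56 and 0.21, the 1.56 being that of calf 24. None passed the test.

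**Figure D4:**
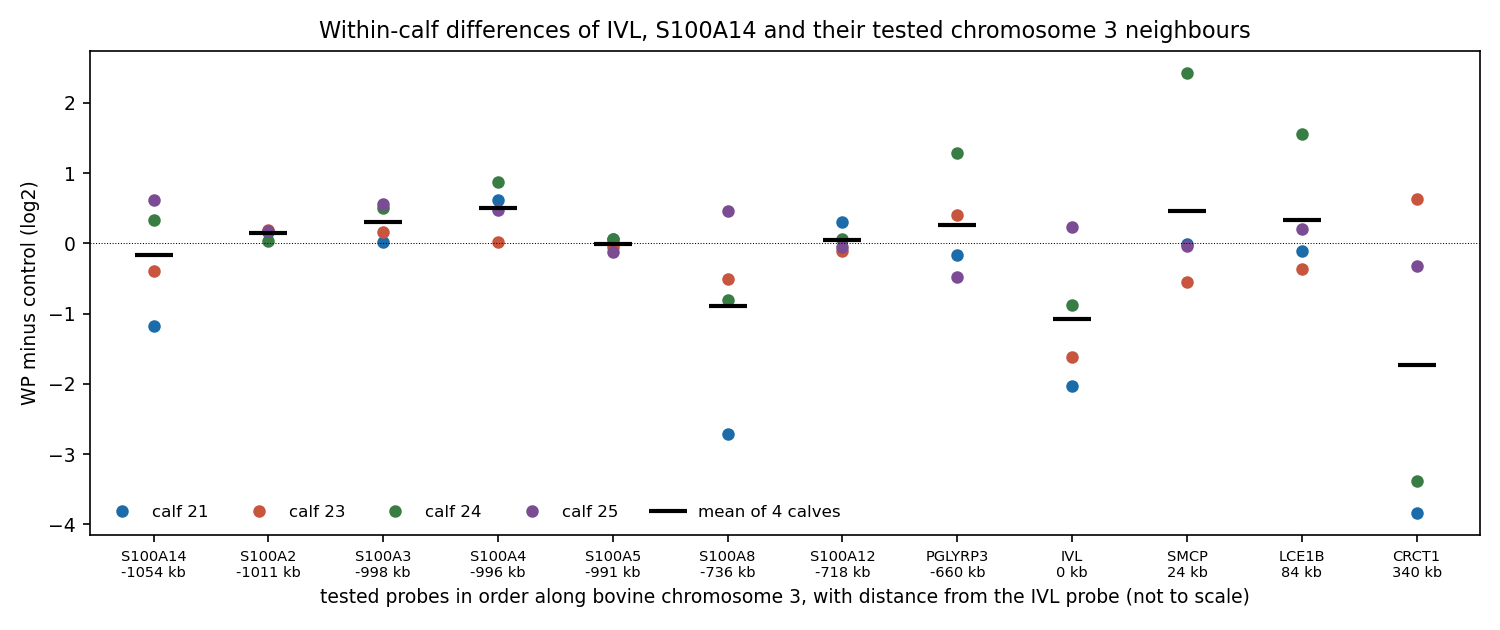
WP minus control difference (log2) of IVL, S100A14 and the 10 other tested genes between the S100A14 and CRNN probes, in order along chromosome 3 with the distance from the IVL probe in kb (not to scale). Points are the 4 calves and black bars their mean. CRCT1 (-1.73), IVL (-1.07) and S100A8 (-0.89) have the lowest means.

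Other genes of the envelope and its processing were taken from a list of 51, of which 31 had a probe and 20 were tested. Of the 20, 12 had negative and 8 positive mean differences, with a median of -0.12 beside 0.087 over all probes. Negative means were found for 35.6% of all tested probes. None passed an adjusted p of 0.05 in limma, and at an unadjusted p under 0.05 there were 0 on the lower side and 1 on the higher side. That was S100A4, a calcium-binding protein also made by stromal cells, at 0.50 ± 0.36 (SD, n = 4).

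Next by p came the probe that the array design names CSTB, for the protease inhibitor cystatin B, at -0.36 ± 0.26, and the envelope-associated S100A11 at -0.38 ± 0.43 (SD, n = 4). PI3, the transglutaminase substrate elafin, gave -9.74, -0.67, -3.21 and 0.70 in calves 21, 23, 24 and 25, the largest single difference in the list. S100A8 gave a mean of -0.89 ± 1.33 and CTSD, the lysosomal protease cathepsin D, -0.28 ± 0.37 (SD, n = 4). The adjusted p of these 6 genes lay between 0.658 and 0.667.

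Of the other transglutaminases, TGM5, which also serves the envelope, gave 0.65, 0.72, -1.52 and -1.13 in calves 21, 23, 24 and 25. Thus it was higher on WP in the calves in which the TGM1 difference was lowest, and its mean was -0.32 ± 1.17 (SD, n = 4). TGM2, the widely expressed tissue enzyme, gave 0.19 ± 0.70, and TGM6 gave 0.28 ± 0.52 (SD, n = 4). The scaffold proteins of the envelope, envoplakin (EVPL) at 0.19 ± 0.41 and periplakin (PPL) at -0.12 ± 0.25 (SD, n = 4), differed by less than their spread. KRTDAP and SBSN, secreted proteins of differentiating keratinocytes, were above background on 6 and 7 of the 8 arrays, so the size of their differences is not set. In calves 21, 23, 24 and 25 KRTDAP gave -2.385, 1.63, -3.58 and -0.026. SBSN gave -0.71, 2.08, -4.01 and -1.08. Both were higher on WP in calf 23 only, where IVL and TGM1 were lower on WP. None of the genes in this paragraph passed the test.

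Markers of squamous layers and of other cell types were set beside these values. The counts of negative and positive means below stand beside a share of 35.6% negative over all tested probes. Of the suprabasal list of 12 genes, 9 had a probe and 7 were tested, 6 of them with negative means and a median of -0.30. Its calf medians were -0.12, 0.17, -0.48 and -0.14 in calves 21, 23, 24 and 25. The median was thus near 0 or positive in the 2 calves where the IVL and TGM1 differences were lowest. Keratin 6A (KRT6A) gave -0.61, -0.012, -0.48 and -0.14 and keratin 10 (KRT10) 1.14, 0.37, -0.022 and 0.51 in calves 21, 23, 24 and 25. The summed level of the list, on the linear scale relative to the 75th percentile, was 962 to 1050 on control and 745 to 1060 on WP. KRT4 and DSC1 were not above background often enough to be tested.

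All 10 basal markers were tested, 8 with positive means, and their median was 0.76, 0.34, -0.16 and -0.40 in calves 21, 23, 24 and 25, opposite in sign to the median of the envelope genes in calves 21, 23 and 25. Their summed level was 197 to 300 on control and 207 to 347 on WP. Of 12 tested fibroblast markers out of 13, 11 had positive means, with calf medians of -0.35, 0.65, 0.86 and 0.78 and sums of 16 to 55.1 on control and 27.5 to 58.4 on WP. Endothelial markers were positive in 9 of 10 tested (sums 4.12 to 7.33 against 5.31 to 9.76) and smooth muscle markers in 6 of 6 tested (sums 11.6 to 18.5 against 15.7 to 21.2). Some of these markers were dim, and the WP array of calf 24 had raised dim probes. LMOD1 (2.825), MYH11 (2.01), TIE1 (1.70) and PDGFRA (1.40) were highest in calf 24, while LUM and KDR were highest in calf 23. TIE1 (1.665) and PDGFRA (1.344) were nearly as high in calf 23 as in calf 24. The part of that array in these counts was not tested.

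Among immune markers, 3 of 6 tested macrophage genes, 3 of 7 tested T and NK cell genes and 1 of 5 tested B and plasma cell genes had positive means. The calf medians were -0.73, -0.023, 0.56 and 0.81 for macrophage genes and -1.45, 0.038, 0.75 and 0.41 for T and NK cell genes in calves 21, 23, 24 and 25. Both were lowest in calf 21 and positive in calf 25, as for the envelope genes. In calf 23 both were near 0 where the envelope median was -0.53, and in calf 24 both were positive where it was -0.50. For B and plasma cell genes they were -0.61, -0.13, 0.13 and -0.34, and for endothelial genes -0.34, 1.53, 0.12 and 0.53. Their summed levels were 4.09 to 10.4 on control against 4.04 to 7.37 on WP for macrophages, 1.02 to 2.59 against 1.19 to 2.26 for T and NK cells and 12.1 to 17.5 against 9.11 to 13.5 for B and plasma cells. None of the markers of any list passed an adjusted p of 0.05 in limma. The part of cell makeup in the differences of the envelope genes was not tested.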

How the data were processed

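The deposited scanner files hold the spot intensity, and their processed signal had been background-corrected by the scanner software, Feature Extraction (the submitters' processing notes give version 9.5 and the file headers 11.0.1.1). The authors also deposited a table of log2 values (column medians -3.10 to -2.27). Compared column by column, it equals the log2 processed signal less an array constant, so its scale and direction are known and genes were not centred. It was used as an alternative.

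Control spots were left out, as were 97 spots flagged as outliers, spots of a probe were averaged, and each array's 75th percentile was subtracted from log2 of the processed signal. The 10236 of 15008 probes that were well above background on 4 or more of the 8 arrays were tested with limma 3.58.1 in R 4.3.3 (lmFit, eBayes, two-sided, calf as a block), with Benjamini-Hochberg adjustment over all of them. Shares of probes by mean difference or by limma p were taken over these 10236. Shares by single calves, by overlap of arrays or by place among all probes used the 10194 probes with a value on all 8 arrays. The number of arrays limits the precision.

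Gene names come from the RefSeq table of ARS-UCD2.0, matched by accession (11194 probes), symbol (3085) or older symbol (38), and 691 probes kept the array's name. A gene is represented by its brightest probe. Calf numbers in the labels pair the arrays. The correlation of both arrays of a calf, as deviations from the diet means, was 0.00897, 0.195, 0.0600 and 0.0475 in calves 21, 23, 24 and 25: the labels and not the values give the pairing. The members and the lists were chosen with earlier results of these data known. From the list of other envelope genes, the 6 of smallest p were named, and other members of it for their role in the envelope after their values were seen. For IVL and TGM1 the 5 genes of nearest profile were named, and chromosome 3 genes, keratins and markers of other cell types after their values were seen. Alternatives were normexp background correction (offset 50), quantile and cyclic loess scaling, the authors' table, other filters on low signal, a fit without calf, the array row, an intensity trend in the prior, the mean over a gene's probes and each calf left out. A fit without the WP array of calf 24 was added after seeing the data.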

Additional observations from a re-analysis of the deposited data

How the results depend on the processing

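The count of probes past an adjusted p of 0.05 in limma was 0 in every alternative run, with the lowest adjusted p between 0.346 (normexp) and 0.843 (within row 2). Without calf as a block (no pairing of the arrays) it was also 0, the adjusted p of the 5 tested members lay between 0.631 and 0.869, and the block changed no call at an adjusted p of 0.05. Without any filter on dim probes, which adds LOR, SPRR3 and SCEL near background, the precursor median turned to 0.61 and the precursor minus enzyme difference to 1.62. Leaving out 1 calf at a time gave 0 probes each time, a precursor median of -1.15 to -0.47, an enzyme median of -1.44 to -0.46 and a precursor minus enzyme difference of -0.0125 (without calf 21) to 0.29. S100A14 ranged from -0.42 to 0.18, the latter without calf 21. IVL, CNFN, TGM1 and TGM3 kept a negative mean in all of these. Counts at an unadjusted p under 0.05 moved to 293 lower and 1134 higher with normexp, 349 lower with row as a second block, 101 lower without the filter, 109 lower and 353 higher within row 2, 69 lower without calf 21 and 264 higher without calf 24. Without the WP array of calf 24, in a fit with no block added after seeing the data, IVL gave -1.05 and TGM1 -1.10. With 4 calves, intervals reached more than 1 log2 to each side of the mean for TGM1 and TGM3, and genes near background give no diet value.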
